A study of Mus musculus with 12 samples.

Results

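The genes described here are 50 pan-neuronal differentiation genes, out of 24946 genes in the expression table. They were listed by name and role to cover what nearly every neuron makes once it leaves the cell cycle: 17 genes of the cytoskeleton, growth cone and axonal transport, 7 of vesicle release, 6 of RNA binding, 10 transcription factors, 2 of axonal adhesion, 3 of secretory granules, the calmodulin regulator Pcp4 and 4 of transmitter synthesis and transport. All 50 were in the table, and 47 passed a filter on low values (a group mean above 1 in at least 1 of the 4 groups). Of these, 40 passed through both conditions, 6 through controls only (Syt1, Syt4, Syn1, Myt1, Myt1l and Slc17a6) and Gad1 through embryoids only. Onecut3, Gad2 and Slc32a1 were at 1 or below in every library and were not tested.

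Bulk RNA sequencing was performed on embryoids at D8 and D7 and on controls at D8 and D7, with 3 libraries in each of the 4 groups and RNA pooled from 12 aggregates per library. For embryoids, an aggregate of 50 mouse ESCs was incubated for 8 h with BMP4, at 10 ng/ml by the labels, and merged at D3 with an untreated aggregate of 100 cells. The study's methods give the concentration in µg/ml and another pool size, and which is right could not be settled here. For controls, 2 untreated aggregates of these sizes were merged at D3. By the labels every library came from the E14TG2a line of strain 129/ola. However, the names given to the libraries start with WT for controls and with E14 for embryoids, and Hprt, named here because of its values, stood at 0 or 1 in every embryoid library and at 32 to 36 in every control library. A difference of cell line and the BMP4-treated aggregate therefore cannot be told apart in any comparison of embryoids with controls below. The values are whole numbers that sum to between 997897 and 998433 per library and are taken as TPM rounded by the authors, so levels can be compared between genes per length, the sequencing depth is unknown, and a value of 1 or 2 is known only to the nearest whole number. The study describes the replicates as biologically independent samples.

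Neurons that have left the cell cycle fill their processes with neuron-specific tubulin, microtubule-associated proteins and neurofilaments, build the SNARE machinery that fuses synaptic vesicles, and switch on RNA-binding proteins that set neuronal splicing and mRNA stability. Basic helix-loop-helix and zinc finger factors such as NHLH1, INSM1 and MYT1L act during this step, and many of the genes they accompany are held off in other tissues by the repressor REST, which binds the RE1 element. In the mouse embryo the first neurons of the neural tube appear soon after the tube begins to close, beside progenitors that still divide.

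Most pan-neuronal genes were lower in embryoids than in controls on both days, and many were higher at D8 than at D7 in both conditions. At D8, 39 of the 47 tested members were lower in embryoids and 2 were higher (Pcp4 and Gad1), where 9.61% of all tested genes were lower and 10.2% were higher. At D7, 34 members were lower and only Pcp4 was higher, where 8.33% of all tested genes were lower and 7.56% were higher. Among the 40 members that passed the filter through both conditions, 34 were lower and 1 higher at D8 and 32 lower and 1 higher at D7, beside 8.40% and 4.93% of all 11936 such genes at D8 and 7.85% and 3.43% at D7. The 7 members that passed through 1 condition only had to be high there, so their calls add nothing to the direction. A gene was called when its limma adjusted p was below 0.05 and its log2 fold change, taken on the log2(value + 1) scale, was above 1 or below -1. In all, 32 members were lower on both days, 7 at D8 only (Gap43, Syt4, Rbfox3, Myt1l, Scrt2, Onecut2 and Slc17a6) and Nefm and Nhlh2 at D7 only, and Vamp2, Stx1a, Myt1 and Onecut1 passed on neither day. The median log2 fold change of the tested members was -1.93 at D8 and -1.46 at D7, beside -0.18 and -0.19 over all 13751 tested genes. Rescaling by median-of-ratios size factors moved the median of all genes to 0.02 at D8 and 0.01 at D7, and that of the members to -1.72 and -1.32. In bulk samples fewer neurons and less RNA per neuron cannot be told apart.

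**Figure D1:**
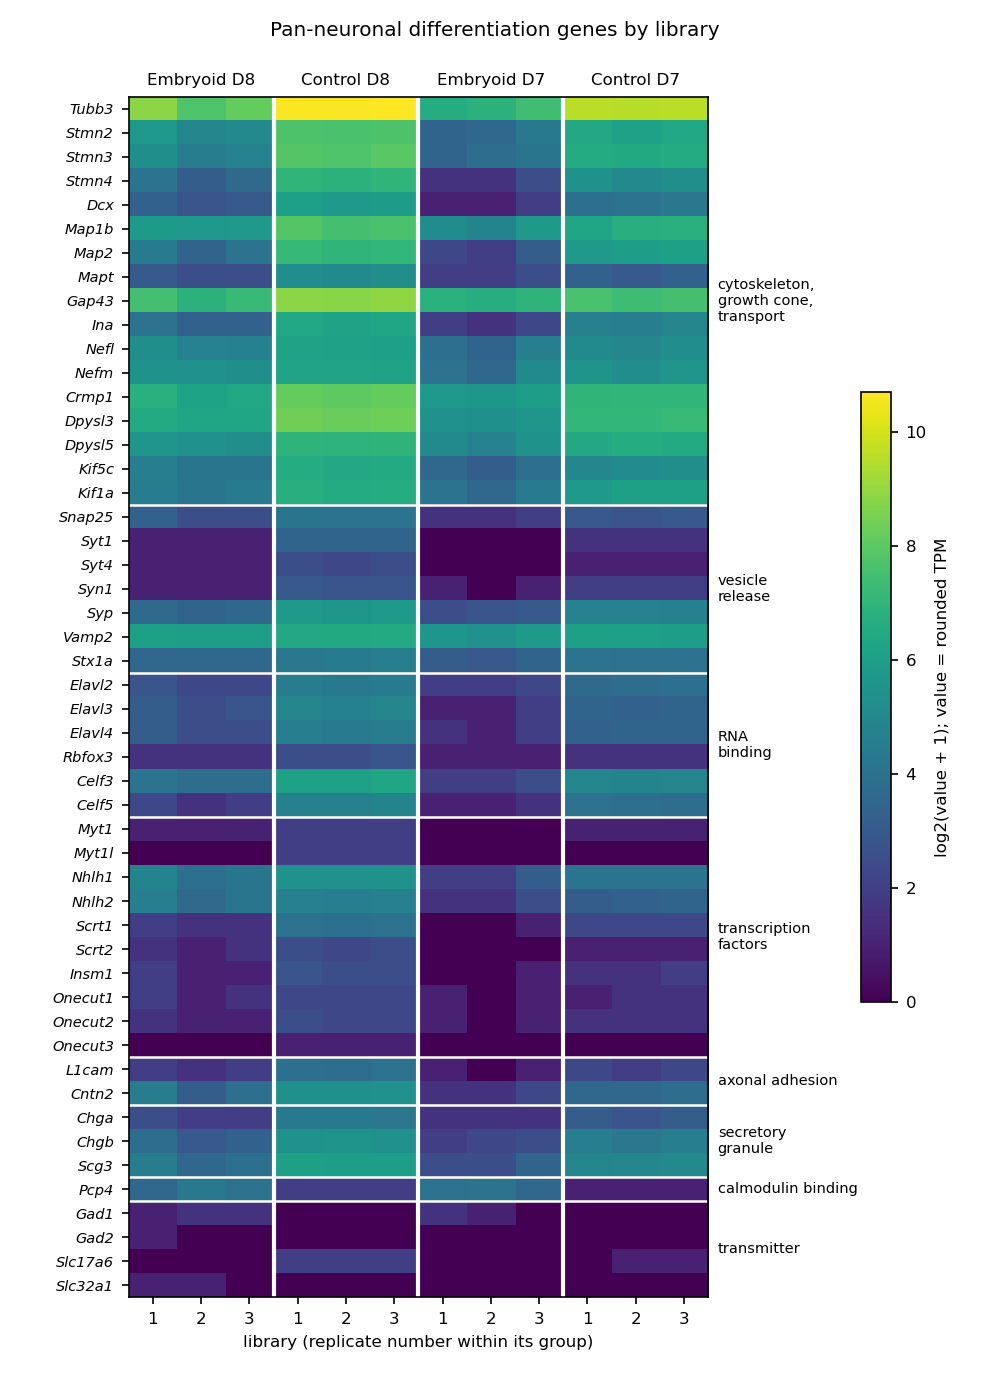
Values of the 50 members (one line each, grouped by role) in the 12 libraries as log2(value + 1), with embryoids left of controls for each day. The D8 controls carry the brightest columns for most members, whereas Pcp4, Gad1 and Slc32a1 are brighter in embryoids.

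As these classes of regulators bind DNA, the sequence around their start sites was searched on both strands, in windows of 250 bases before and 50 bases after the start from RefSeq (GRCm38.p6), which held 35 of the 50 members. The RE1 element was searched as TCAGCACC and GGACAG with 2 bases of any kind between them and up to 2 mismatches in all. It was found in 3 members (8.57%), against 0.518% of 27025 genes. These 3 matches are shown with the matched letters in capitals, because no other member with a window held one there. Gad2 (chr2:22622155-22622184, plus strand) has 2 mismatches, and Slc17a6 (chr7:51621850-51621879, plus strand, with the element on the other strand) and Syn1 (chrX:20921127-20921156, minus strand) have 1 each.
Gad2: ggctgtgGTAGCACCCTGGACAGcgcgttc
Slc17a6: ttccttagcttcctCTGTCCGTGGTCCTGA
Syn1: gtcggatTCAGCACCGCGGTCAGagccttc

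The E-box CAGCTG, which reads the same on both strands, was found in 9 members (25.7%) and in 16.1% of all genes, and the E-box CAGATG, whose other strand reads CATCTG, in 7 members (20%) and in 17.2% of all genes. The 250 bases before the start are printed for Tubb3, the member of highest level (chr8:123411303-123411552, plus strand), for Elavl3, a member lower in embryoids with CAGCTG in capitals (chr9:22052024-22052273, minus strand), and for Pcp4, the member higher in embryoids on both days (chr16:96467356-96467605, plus strand). None of the letters searched occur in the windows of Tubb3 and Pcp4. These matches describe the letters only, and no binding was measured.
Tubb3: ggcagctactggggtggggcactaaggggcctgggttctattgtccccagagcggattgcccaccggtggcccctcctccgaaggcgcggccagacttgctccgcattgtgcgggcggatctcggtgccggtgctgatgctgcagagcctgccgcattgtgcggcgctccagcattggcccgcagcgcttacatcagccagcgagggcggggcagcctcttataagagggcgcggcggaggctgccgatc
Elavl3: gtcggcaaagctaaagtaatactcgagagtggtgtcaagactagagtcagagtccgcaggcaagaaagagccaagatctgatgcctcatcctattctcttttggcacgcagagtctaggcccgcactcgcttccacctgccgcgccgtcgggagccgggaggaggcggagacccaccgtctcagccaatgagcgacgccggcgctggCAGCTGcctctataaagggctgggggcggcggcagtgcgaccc
Pcp4: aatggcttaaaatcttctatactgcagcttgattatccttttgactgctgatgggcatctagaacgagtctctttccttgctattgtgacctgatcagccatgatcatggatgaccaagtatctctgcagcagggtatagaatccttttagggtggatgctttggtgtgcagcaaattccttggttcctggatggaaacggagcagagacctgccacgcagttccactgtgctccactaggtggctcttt

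Genes of the cytoskeleton, growth cone and transport made up the largest group. In embryoids 16 of 17 were lower at D8 (all but Nefm) and 16 of 17 at D7 (all but Gap43). Over all tested genes, 9.61% were lower at D8 and 8.33% at D7, which also stands beside the counts of the other roles. Tubb3, the beta-tubulin specific to neurons and the member of highest level in every group, was listed at 463, 213 and 286 in D8 embryoids, against 1579, 1570 and 1660 in D8 controls. At D7 it was listed at 98, 118 and 170 in embryoids, against 781, 750 and 763 in controls. Its embryoid libraries did not reach the control libraries of either day, and the log2 fold change was -2.39 ± 0.25 (SE) at D8 (limma adjusted p = 9.02e-06) and -2.60 ± 0.25 at D7 (5.89e-06). Map2, which binds microtubules in dendrites, gave the largest difference at D7. It stood at 20, 10 and 16 in D8 embryoids, against 141, 126 and 136 in D8 controls, and at 4, 3 and 8 in D7 embryoids, against 54, 63 and 66 in D7 controls. The groups lay far apart on both days, with log2 fold changes of -3.10 ± 0.28 at D8 (limma adjusted p = 3.35e-06) and -3.45 ± 0.28 at D7 (1.82e-06).

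The 3 stathmins of the nervous system, which bind tubulin dimers, were lower on both days. Stmn4 was at 16, 8 and 12 in D8 embryoids, against 127, 115 and 127 in D8 controls, and at 2, 2 and 5 in D7 embryoids, against 44, 32 and 38 in D7 controls. Its log2 fold changes were -3.30 ± 0.28 at D8 and -3.36 ± 0.28 at D7 (limma adjusted p = 1.61e-06 and 1.77e-06). Stmn3 was lower by a log2 fold change of -2.99 at D8 and -2.74 at D7, and Stmn2, a factor of growth cones, by -2.47 and -2.54. Dcx, the doublecortin of migrating young neurons, had values of 9, 6 and 7 in D8 embryoids, against 65, 54 and 58 in D8 controls, with a log2 fold change of -2.86 ± 0.24 (limma adjusted p = 8.69e-07). All of its embryoid libraries, of either day, lay below the lowest control library of D7, which was at 14.

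Among the remaining cytoskeletal members, the intermediate filament genes spanned small and large differences. Ina, the alpha-internexin of young neurons, was at 11 ± 3.46 (SD, n = 3) in D8 embryoids, against 77.7 ± 7.09 in D8 controls, with a log2 fold change of -2.75 ± 0.20 (limma adjusted p = 3.49e-07). Nefm, the medium neurofilament, was at 44, 41 and 39 in D8 embryoids, against 76, 74 and 71 in D8 controls, and its log2 fold change of -0.82 ± 0.29 (limma adjusted p = 0.0270) did not pass the fold threshold. Nefm was lower at D7 (-1.23), as was Nefl, the light neurofilament, on both days (-1.18 at D8 and -1.13 at D7), but without the D7 embryoid replicate 2 the D7 values were -0.91 for Nefm and -0.86 for Nefl and neither was called. Nefl was also not called on either day after median-of-ratios scaling (-0.97 at D8 and -0.91 at D7) or quantile normalization (-0.99 and -0.87). The exons of Nefl and Nefm overlap on opposite strands, as do those of Ina and Nt5c2 (42.7 in D8 embryoids, against 64.3 in D8 controls on average). The sources used here do not say whether strand was used in counting, so reads of such pairs may not have been told apart.

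Mapt, which encodes tau and stabilises axonal microtubules, was the only member passing the filter through both conditions whose embryoid-control difference changed between the days. It was listed at 7, 5 and 5 in D8 embryoids, against 37, 34 and 38 in D8 controls, and at 3, 3 and 5 in D7 embryoids, against 9, 7 and 9 in D7 controls. The highest D8 embryoid library only equalled the lowest D7 control library, and the log2 fold change was -2.50 ± 0.17 at D8 (limma adjusted p = 1.69e-07) and -1.02 ± 0.17 at D7 (0.000259). The D7 call was lost without the D7 embryoid replicate 1 or 2 (-0.92 each) and without the D7 control replicate 1 or 3 (-0.97 each). Gap43, the growth-associated protein of extending axons, was at 182, 115 and 148 in D8 embryoids, against 453, 450 and 482 in D8 controls, and at 112, 100 and 124 in D7 embryoids, against 198, 167 and 187 in D7 controls. Its libraries did not overlap on either day, but only the D8 difference passed (log2 fold change -1.66 ± 0.14, limma adjusted p = 1.24e-06, against -0.71 ± 0.14 at D7). The other 6 members of the group were the microtubule protein Map1b, the collapsin response mediators Crmp1, Dpysl3 and Dpysl5 that relay guidance cues, and the kinesins Kif5c and Kif1a that carry cargo along axons. They were lower on both days, with log2 fold changes of -1.51 (Dpysl5) to -2.26 (Kif1a) at D8.

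**Figure D2:**
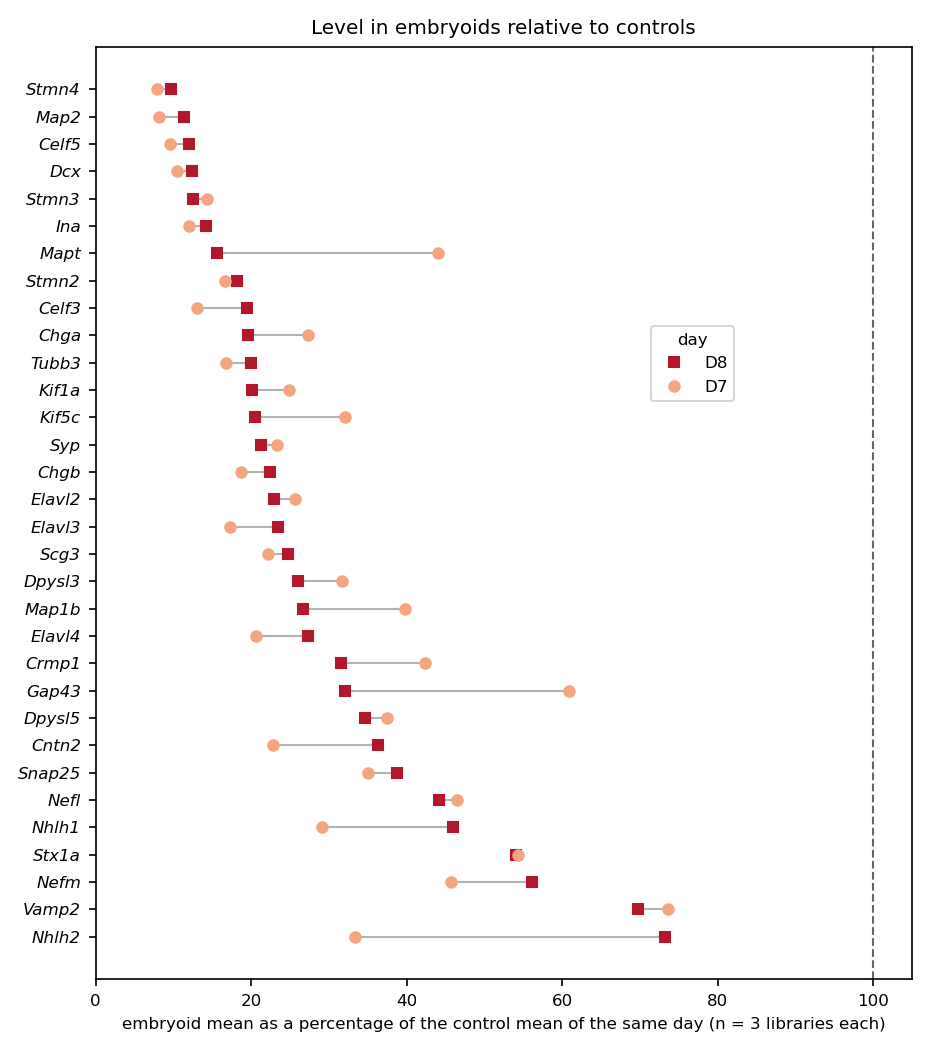
Mean level in embryoids as a percentage of the control mean of the same day (n = 3 libraries each), for members at 5 or above in the controls of both days, with D8 as squares and D7 as circles. Stmn4 lies at 9.76% at D8 and 7.89% at D7, whereas Vamp2 lies at 69.7% and 73.6%.

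Vesicle release genes had wide-ranging levels, with D8 embryoid means of 10% (Syt1) to 69.7% (Vamp2) of the D8 control means. At D8, 5 of the 7 were lower in embryoids and at D7, 4 of the 7. Of these, only Snap25 and Syp passed the filter through both conditions. Syp, the vesicle protein synaptophysin, was at 12, 10 and 11 in D8 embryoids, against 52, 50 and 53 in D8 controls, and at 5, 6 and 7 in D7 embryoids, against 26, 26 and 25 in D7 controls. Its libraries varied little within each group and the log2 fold change was -2.14 ± 0.10 at D8 and -1.94 ± 0.10 at D7 (limma adjusted p = 6.81e-09 and 1.84e-08). Syt1, the calcium sensor of fast release, was at 1 in each D8 embryoid library and at 10 in each D8 control library, and was listed at 0 in all D7 embryoids and at 2 in all D7 controls. Syt1, Syt4 and Syn1 passed the filter through controls only, so their calls restate the filter and are no test. Syt1 also had no spread within any group. Syn1, the vesicle phosphoprotein synapsin I, was at 1 in each D8 embryoid library and at 7, 6 and 6 in D8 controls (log2 fold change -1.87), and its D7 call was lost without the D7 embryoid replicate 2 (-1). Syn1 shares exon sequence on the opposite strand with Araf, which was at 70.3 in D8 embryoids, against 82.3 in D8 controls on average.

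The SNARE genes were nearer to the controls. Vamp2, the vesicle SNARE, had the highest level in this role, with 67, 61 and 61 in D8 embryoids, against 88, 90 and 93 in D8 controls, and with 48, 42 and 52 in D7 embryoids, against 67, 65 and 61 in D7 controls. The groups did not overlap on either day, yet the log2 fold changes of -0.51 ± 0.07 at D8 and -0.44 ± 0.07 at D7 were under the fold threshold (limma adjusted p = 6.66e-05 and 0.000256). Stx1a, a SNARE of the plasma membrane, had a log2 fold change of -0.82 on both days. Snap25, its partner there, was lower on both days, with 9, 5 and 5 in D8 embryoids, against 17, 16 and 16 in D8 controls (-1.28 ± 0.18, limma adjusted p = 7.65e-05). Vamp2 is also made outside neurons, and its level by cell type was not tested.

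All 6 RNA-binding genes were lower in embryoids at D8, and 5 of 6 at D7. Celf3 and Celf5, neuronal members of the CELF splicing family, gave the largest differences. Celf3 was at 16, 13 and 13 in D8 embryoids, against 69, 68 and 79 in D8 controls, and at 3, 3 and 5 in D7 embryoids, against 29, 27 and 28 in D7 controls. No embryoid library of either day reached the D7 controls, and the log2 fold change was -2.29 ± 0.14 at D8 and -2.66 ± 0.14 at D7 (limma adjusted p = 9.63e-08 and 3.46e-08). Celf3 shares exon sequence on the opposite strand with Riiad1 (means of 1.67 in D8 embryoids, 3.67 in D8 controls). Celf5 was at 4, 2 and 3 in D8 embryoids, against 24, 24 and 27 in D8 controls, and at 1, 1 and 2 in D7 embryoids, against 15, 14 and 13 in D7 controls. Its log2 fold change was -2.73 ± 0.19 at D8 and -2.71 ± 0.19 at D7 (limma adjusted p = 2.03e-07 and 2.76e-07).

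The neuronal ELAV-like proteins stabilise mRNAs with AU-rich elements, and their 3 genes had mean levels of 4.67 to 6.33 in D8 embryoids, against 20.3 to 27 in D8 controls. Elavl3 was at 8, 5 and 6 in D8 embryoids, against 28, 25 and 28 in D8 controls, and at 1, 1 and 3 in D7 embryoids, against 10, 9 and 10 in D7 controls. The log2 fold changes were -1.95 ± 0.24 and -2.08 ± 0.24 (limma adjusted p = 1.86e-05 at D8 and 1.36e-05 at D7). Elavl2 and Elavl4 were lower by log2 fold changes of -1.93 and -1.74 at D8, and -1.70 and -1.89 at D7. Rbfox3, which encodes the mature-neuron marker NeuN, had low values throughout, at 2 in each D8 embryoid library and 5, 5 and 6 in D8 controls. Its D8 log2 fold change of -1.07 ± 0.10 (limma adjusted p = 1.69e-06) was at -1, and not called, without the D8 control replicate 3.

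Of the 9 tested transcription factors, 6 were lower in embryoids at D8 and 4 at D7. The 6 include Myt1l, which passed the filter through D8 controls only. Nhlh1 and Nhlh2 are paired basic helix-loop-helix factors of newborn neurons, and they were the members of this role with the highest levels. Nhlh1 was at 27, 14 and 17 in D8 embryoids, against 42, 41 and 43 in D8 controls, and at 3, 3 and 8 in D7 embryoids, against 16 in each D7 control library. Its log2 fold change was -1.13 ± 0.30 at D8 and -1.70 ± 0.30 at D7 (limma adjusted p = 0.00561 and 0.000442), and the D8 value was -0.94 without the D8 embryoid replicate 2. Nhlh2 was at 23, 12 and 17 in D8 embryoids, against 24, 23 and 24 in D8 controls, the only tested member whose groups overlapped at D8. Its D8 log2 fold change was -0.47 ± 0.26 (limma adjusted p = 0.133), whereas at D7 it was lower in embryoids, with 2, 2 and 5 against 8, 9 and 10 (-1.40 ± 0.26, limma adjusted p = 0.000663). The change between the days was not called (0.93 ± 0.37, limma adjusted p = 0.157), but it passed without the D7 embryoid replicate 3 (1.26, limma adjusted p = 0.0174).

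Scrt1, a zinc finger factor of postmitotic neurons, was at 3, 2 and 2 in D8 embryoids, against 15, 14 and 15 in D8 controls, and at 0, 0 and 1 in D7 embryoids, against 4 in each D7 control library. Its log2 fold change was -2.25 ± 0.23 at D8 and -1.99 ± 0.23 at D7 (limma adjusted p = 4.80e-06 and 1.60e-05). Myt1l, a zinc finger factor known for repressing non-neuronal genes in neurons, was listed at 0 in all embryoids of both days and in all D7 controls, and at 3 in each D8 control library. It passed the filter through those 3 libraries only, so its D8 call restates the filter, and no fold or p is given. Insm1, a zinc finger factor of newborn neurons and endocrine cells, was lower on both days (-1.33 at D8 and -1.39 at D7), and Scrt2 and Onecut2 were lower at D8 (-1.11 and -1.21), Scrt2 not without the D8 embryoid replicate 2 (-0.91). Myt1, Onecut1 and the untested Onecut3 were at 4 or below in every library.

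Both axonal adhesion members and all 3 granule members were lower in embryoids on both days. Cntn2, a contactin of early commissural and motor axons, was at 22, 8 and 14 in D8 embryoids, against 40, 40 and 41 in D8 controls, and at 2, 2 and 4 in D7 embryoids, against 11, 11 and 13 in D7 controls. The D8 embryoids spread over more than the whole D7 control range, and the log2 fold change was -1.5 ± 0.29 at D8 and -1.83 ± 0.29 at D7 (limma adjusted p = 0.000814 and 0.000224). L1cam, a cell adhesion molecule of growing axons, was at 3, 2 and 3 in D8 embryoids, against 14, 13 and 15 in D8 controls (-2.04 ± 0.24, limma adjusted p = 1.48e-05). L1cam shares exon sequence on the same strand with Arhgap4 (means of 1.33 in D8 embryoids, 2 in D8 controls). Scg3, a sorting protein of dense-core granules, was at 22, 11 and 14 in D8 embryoids, against 66, 61 and 63 in D8 controls (-2 ± 0.25, limma adjusted p = 3.41e-05). Chga and Chgb, the chromogranins stored in those granules, were lower by log2 fold changes of -2.10 and -2.08 at D8 and -1.46 and -2.17 at D7. Chromogranins and SCG3 are also made by endocrine cells, whose 9 markers summed to 37 to 69 in D8 embryoids, against 32 to 41 in D8 controls, and to 25 to 29 in D7 embryoids, against 46 to 54 in D7 controls, with Gcg, Gast and Nkx2-2 listed at 0 in every library. Their part in the granule genes' values was not tested.

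Pcp4 ran the other way. This small regulator of calmodulin, known from Purkinje cells and also made outside the nervous system, was at 11, 19 and 15 in D8 embryoids, against 3 in each D8 control library, and at 15, 16 and 11 in D7 embryoids, against 1 in each D7 control library. All 6 embryoid libraries were above all 6 control libraries, with a log2 fold change of 1.97 ± 0.17 at D8 and 2.89 ± 0.17 at D7 (limma adjusted p = 1.24e-06 and 7.08e-08). Igsf5, which shares exon sequence with Pcp4 on the same strand, averaged 0.333 in embryoids and 0 in controls on each day. Embryoids also carried markers of other tissues that were near 0 in controls. The 5 heart markers summed to 810 to 2281 in D8 embryoids, against 0 to 1 in D8 controls, and to 364 to 924 in D7 embryoids, against 0 to 2 in D7 controls, and the 5 mesenchyme markers to 369 to 782 in D8 embryoids, against 8 to 9 in D8 controls. Their part in the level of Pcp4 was not tested.

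The transmitter genes were at the edge of detection. Gad1, which makes GABA, was at 1, 2 and 2 in D8 embryoids, against 2, 1 and 0 in D7 embryoids, and was listed at 0 in all 6 control libraries. It passed the filter through embryoids only, so its D8 call restates the filter. Gad2, its paralog, was at 1, 0 and 0 and Slc32a1, the vesicular GABA carrier, at 1, 1 and 0 in D8 embryoids, and both were listed at 0 in D7 embryoids and in every control library. Slc17a6, the vesicular glutamate carrier, was instead listed at 0 in all embryoids and at 3 in each D8 control library and 0, 1 and 1 in D7 controls. It passed the filter through the controls only, so its D8 call is no test of the difference. At these values the GABA genes and the glutamate carrier were listed in opposite conditions at D8, by 3 or fewer units in each library.

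**Figure D3:**
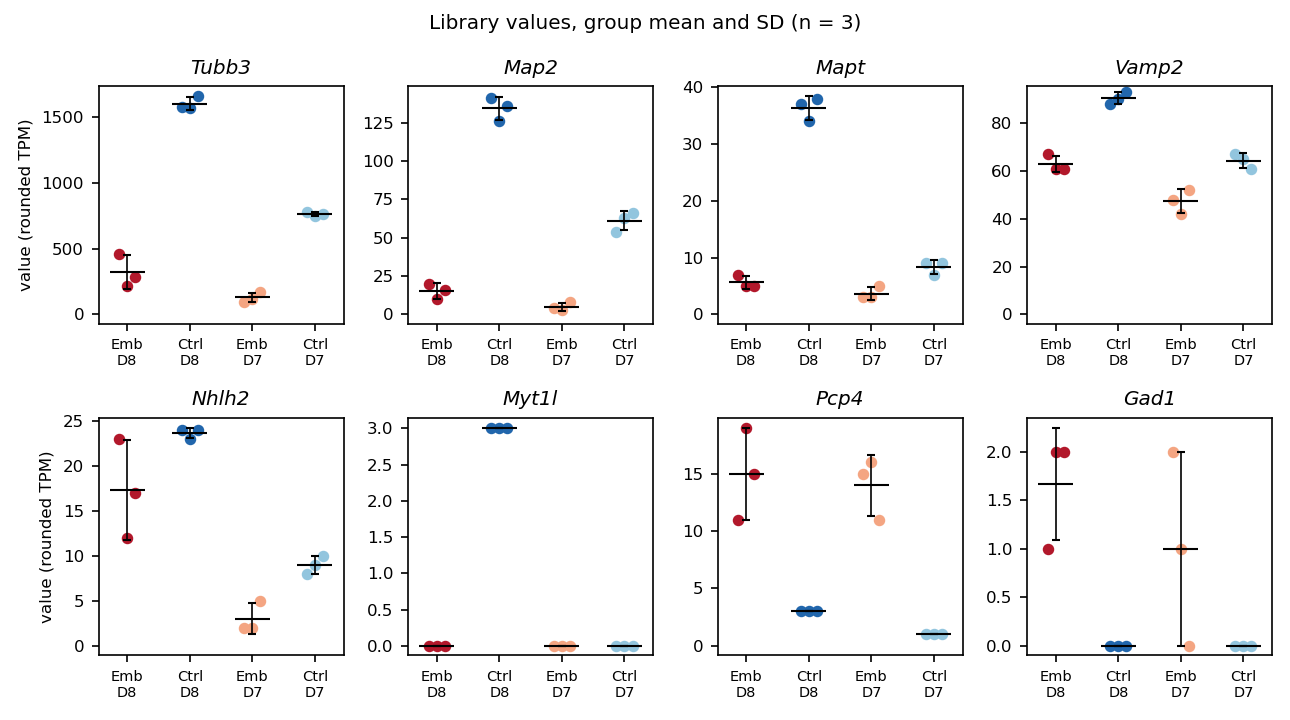
Library values (points), group mean and SD (bars, n = 3) of 8 members, with embryoids left of controls for each day and each axis starting near 0. Tubb3, Map2 and Mapt are highest in D8 controls, Nhlh2 overlaps between the conditions at D8, and Pcp4 and Gad1 are higher in embryoids.

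The members were also expressed as a share of the control level. At D8, 38 members were at 5 or above in controls, and their mean level in embryoids was 22.7% of the control level at the median (9.76% for Stmn4 to 73.2% for Nhlh2), beside 84.0% over the 10351 tested genes at that level. At D7, 32 members had a median of 25.3% (7.89% for Stmn4 to 73.6% for Vamp2), beside 84.4% over 10071 genes. The cytoskeletal genes stood at a median of 20.1% at D8 and 31.7% at D7, and the granule genes at 22.5% and 22.2%. RNA-binding genes stood at 23.2% (6 genes) and 17.2% (5 genes), and vesicle release genes at 30% (6 genes) and 44.7% (4 genes). Above 50% were Nefm, Vamp2, Stx1a and Nhlh2 at D8, and Gap43, Vamp2 and Stx1a at D7. Leaving out members listed at 0 in a compared group, the median log2 fold change was -1.91 over 44 members at D8 and -1.61 over 40 at D7.

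Many members were higher at D8 than at D7. In embryoids 20 of the 47 tested members were higher at D8 than at D7, where 2.53% of all tested genes were, and in controls 30 were, where also 2.53% of all tested genes were. Of the 40 members that passed the filter through both conditions, these were 20 in embryoids and 26 in controls, beside 1.81% and 1.99% of all 11936 such genes. None was lower at D8 by limma in either condition (none at an unadjusted p under 0.05 either), where 0.131% of all tested genes were in embryoids and 0.204% in controls. Of the 47 members 18 were higher in both, Nefm and Chgb in embryoids only and 12 in controls only, which does not show that the conditions differed. The embryoid count rests on the spread shared with the controls. A fit on the 6 embryoid libraries alone called only Celf3 and Scrt2, and without the D8 embryoid replicate 1 the count was 14. Nhlh2 had the largest increase in embryoids, with 23, 12 and 17 at D8 against 2, 2 and 5 at D7 (log2 fold change 2.23 ± 0.26, limma adjusted p = 0.000301), followed by Cntn2 (2.04 ± 0.29, 0.000987) and Nhlh1 (1.90 ± 0.30, 0.00158). In controls the largest was that of Mapt, with 37, 34 and 38 at D8 against 9, 7 and 9 at D7 (2.01 ± 0.17, limma adjusted p = 1.77e-05), where embryoids had 0.53 ± 0.17 (0.0474), under the fold threshold. Tubb3 rose in both, by a log2 fold change of 1.27 ± 0.25 in embryoids (limma adjusted p = 0.00537) and 1.07 ± 0.25 in controls (0.0102), but not without the D8 embryoid replicate 1 (0.97) or the D8 control replicate 3 (adjusted p = 0.0511).

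The test of the difference itself called Mapt (log2 change -1.48 ± 0.24, limma adjusted p = 0.00401), for which embryoids fell further below controls at D8. It also called Myt1l and Slc17a6, which were listed at 0 in all embryoids and passed the filter through controls only, so these 2 calls say only that the controls were above 0 at D8. These 3 of 47 members compare with 0.894% of all tested genes lower and 1.61% higher, and no member was higher by limma (1 at an unadjusted p under 0.05). With quantile normalization 5 members were lower, among all genes 138 were then higher and 191 lower, beside 222 and 123 as tested here. The Slc17a6 call was lost without the D7 embryoid replicate 1, or any 1 of the D8 embryoid or D8 control libraries (limma adjusted p = 0.0531 to 0.0805), and without the D7 control replicate 1 (log2 change -1). Gap43 had a log2 change of -0.94 (limma adjusted p = 0.0161), under the fold threshold, and passed it without the D7 embryoid replicate 2 (-1.02) or the D8 embryoid replicate 1 (-1.10). Pcp4, the member higher in embryoids, had -0.92 (limma adjusted p = 0.0377), a smaller excess at D8, and passed without the D7 embryoid replicate 3 (-1.07) or the D8 embryoid replicate 2 (-1.10).

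**Figure D4:**
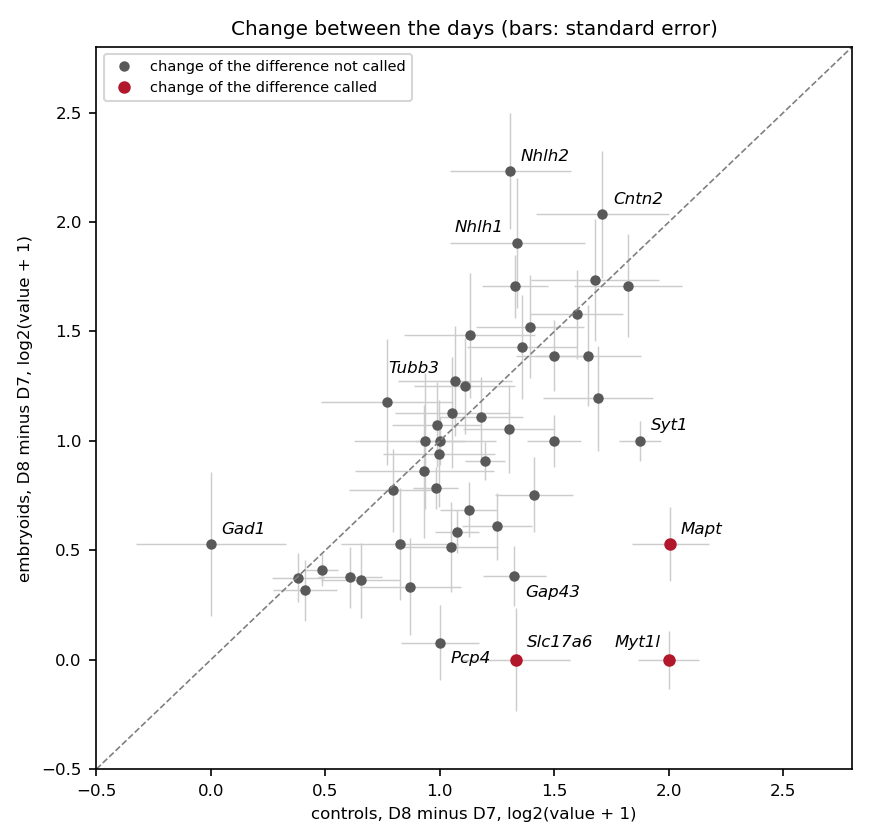
Change from D7 to D8 of the 47 tested members on the log2(value + 1) scale, in embryoids (vertical axis) and in controls (horizontal axis), with standard errors as bars and a dashed line where both are equal. Mapt, Myt1l and Slc17a6 (red) lie below the line, and Nhlh2 lies highest, at 2.23 in embryoids.

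Set beside the D7 controls, the D8 embryoids were lower without overlap for 26 members, higher for 3 (Nhlh2, Pcp4 and Gad1) and overlapped for 18, where 41.5% of all tested genes were lower and 24.1% higher. At the same day, 44 members were lower and 2 higher without overlap at D8, where 48.3% and 25% of all tested genes were, and 42 were lower and 1 higher at D7, where 42.0% and 19.1% were. The D8 embryoid mean as a percentage of the D7 control mean was 193% for Nhlh2, 126% for Cntn2 and 121% for Nhlh1, and 97.9% for Vamp2 and 96.1% for Nefm. It was 46.7% for Stmn2, 41.9% for Tubb3, 25.1% for Map2 and 21.4% for Celf5. These values set a later day of one condition against an earlier day of the other and carry no test.

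The embryoid libraries of a day were ordered alike for most members. Replicate 1 had the highest value among the D8 embryoids for 35 of 36 members with a single highest library, and replicate 3 among the D7 embryoids for 33 of 35. Over all tested genes, these libraries were highest for 37.3% and 41.7%. Without Tubb3 the members summed to 1061, 756 and 840 in D8 embryoids, against 3328, 3107 and 3314 in D8 controls, and to 476, 419 and 626 in D7 embryoids, against 1425, 1401 and 1504 in D7 controls. The 9 neural progenitor markers (Sox1, Sox2, Sox3, Nes, Pax6, Fabp7, Hes5, Dll1 and Msi1) were also summed. In embryoids their sums had the same library order, at 638, 458 and 468 at D8 and 259, 233 and 418 at D7. In controls they were 1668, 1664 and 1739 at D8 and 1345, 1240 and 1325 at D7. Fabp7 was the largest part of each sum, with means of 259 in D8 embryoids, 1000 in D8 controls, 121 in D7 embryoids and 668 in D7 controls. Between the days in controls, only Hes5 was called higher and Pax6 lower at D8, so the markers did not rise together. Of these markers, 7 of 9 were lower in embryoids at D8 and 8 of 9 at D7. The ratio of the 2 sums was 1.65 to 1.79 in D8 embryoids, against 1.87 to 2 in D8 controls, and 1.5 to 1.84 in D7 embryoids, against 1.06 to 1.14 in D7 controls. It was thus below the controls at D8 and above them at D7 in every library. This is a description weighted by Fabp7 and by members of high level. Of those members, Gap43 was at 60.9% and Vamp2 at 73.6% of the control mean at D7. Map2 was at 8.20%, Dcx at 10.4% and Stmn2 at 16.7%, so the ratio does not describe each member. The part of progenitors in the members' values was not tested.

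**Figure D5:**
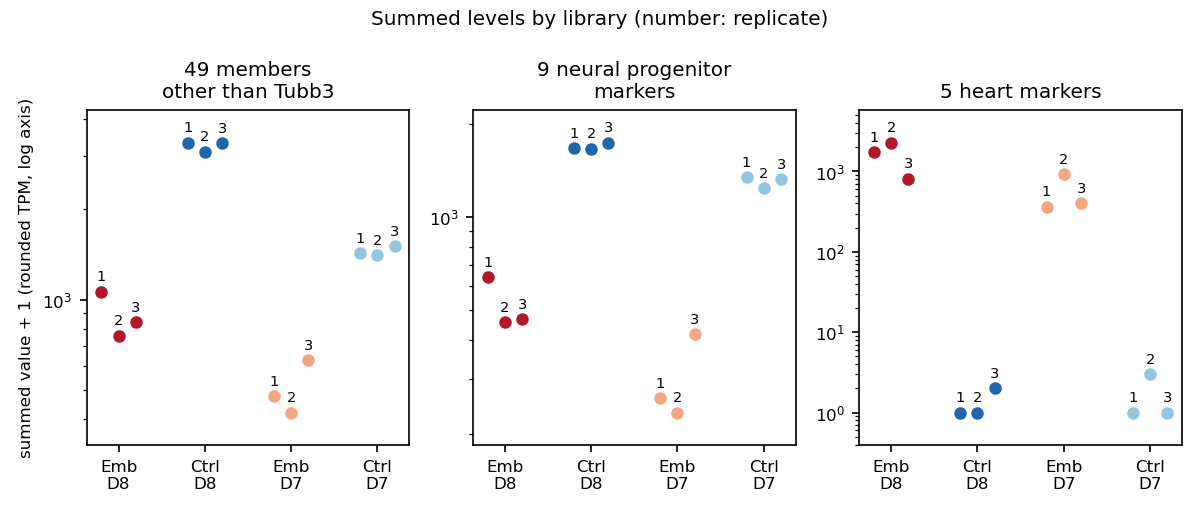
Summed value + 1 per library on a log axis for the 49 members other than Tubb3, the 9 neural progenitor markers and the 5 heart markers, with the replicate number beside each point. D8 embryoid replicate 1 (1061) and D7 embryoid replicate 3 (626) are the highest embryoid libraries of their day for the members, and both embryoid replicates 2 are the highest for heart markers.

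The list does not say which neurons the RNA came from, so markers of neuron kinds were set beside it. The 7 Cajal-Retzius markers summed to 22 to 31 in D8 embryoids, against 314 to 380 in D8 controls, and to 13 to 21 in D7 embryoids, against 67 to 79 in D7 controls, with Trp73 and Tbr1 listed at 0 in every embryoid library. Motor neuron markers summed to 14 to 17 in D8 embryoids, against 2 in each D8 control library. Most of that sum was Isl1, at 10, 13 and 12 in D8 embryoids, against 1 in each D8 control library. Isl1 is a factor that heart and endocrine precursors also make and that the sensory and endocrine lists share. Slc18a3 and Mnx1 were each at 1, 1 and 0 in D8 embryoids and Lhx3 at 2, 1 and 1, and all were listed at 0 in every control library. Chat and Slc5a7, genes of the cholinergic phenotype, were listed at 0 in all 12 libraries. Sensory or crest-derived neuron markers summed to 37 to 44 in D8 embryoids, against 11 to 13 in D8 controls, Pou4f1 being at 0 in all embryoids. The glial genes Gfap, Aqp4 and S100b were listed at 0 throughout. The share of these kinds in the members' values was not tested.

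Other genes of the same pathways went mostly in the same direction, with exceptions. The counts include genes that passed the filter through 1 condition only, whose calls restate the filter. Over all tested genes, 9.61% were lower and 10.2% higher at D8, and 8.33% and 7.56% at D7. Among other neuronal cytoskeleton genes, 12 of 19 tested were lower and 1 was higher in embryoids at D8, and 10 and 1 at D7. Rtn1, a reticulon of neuronal endoplasmic reticulum, was at 53, 25 and 30 in D8 embryoids, against 195, 203 and 205 in D8 controls (-2.52), and Kif5a, a neuronal kinesin, at 7, 5 and 5 in D8 embryoids, against 34, 31 and 35 in D8 controls (-2.38). Both values are D8 log2 fold changes, as are those in brackets below. The higher gene was Thy1, a surface glycoprotein of neurons and thymocytes, at 2, 3 and 3 in D8 embryoids and listed at 0 in all controls. It passed the filter through embryoids only. Of 25 other synaptic genes, 15 were lower at D8 and 11 at D7 and none was higher by limma (none at an unadjusted p under 0.05), with Syngr3, a vesicle protein, at 2, 1 and 2 in D8 embryoids, against 16, 14 and 15 in D8 controls (-2.61). Of 10 other RNA-binding genes, 6 were lower on each day, with Celf4 at 3, 2 and 3 in D8 embryoids, against 16, 15 and 17 in D8 controls (-2.22).

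Axonal adhesion genes outside the list were called in both directions, with 4 of 8 lower and 1 higher at D8, and 3 lower and 2 higher at D7. Of the genes named below, Nrp1 and Ddc passed the filter through embryoids only and Slc17a7 through controls only. Their calls restate the filter. Cntnap2, a neurexin-like protein of axons, was at 11, 5 and 7 in D8 embryoids, against 180, 178 and 194 in D8 controls (-4.47), and Dcc, the netrin receptor, at 9, 3 and 8 in D8 embryoids, against 43, 39 and 39 in D8 controls (-2.54). Nrp1, a receptor for semaphorins and VEGF that endothelium also makes, was higher, at 9, 14 and 15 in D8 embryoids, against 1 in each D8 control library (2.74), beside 5 endothelial markers that summed to 143 to 176 in D8 embryoids, against 5 to 6 in D8 controls. Granule peptides and their processing enzymes were lower for 5 of 5 tested on both days, among them Nnat, a proteolipid of the neuroendocrine membrane, at 213, 255 and 192 in D8 embryoids, against 1789, 1690 and 1842 in D8 controls (-3.01). Of 3 tested transmitter identity genes, Ddc, which decarboxylates DOPA and is also made in gut epithelium, was higher on both days, at 13, 12 and 12 in D8 embryoids, against 1 in each D8 control library (2.74), and Slc17a7, another vesicular glutamate carrier, was lower at D8, with 0 in all D8 embryoids, against 2, 2 and 1 in D8 controls.

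Upstream factors were called in both directions too, but the higher calls were of genes that passed the filter through embryoids only. Of 11 tested proneural factors, 7 were lower and 2 higher in embryoids at D8, and 6 and 2 at D7. Neurog2, a driver of cortical and spinal neurogenesis, was at 6, 5 and 5 in D8 embryoids, against 34, 30 and 34 in D8 controls. Tbr1 and Eomes, of forebrain glutamatergic neurons and their precursors, were listed at 0 in all embryoids and at 40, 31 and 36 and at 22, 20 and 21 in D8 controls. The 2 higher genes were Atoh1, a factor of the dorsal hindbrain, at 13, 2 and 7 in D8 embryoids, and Neurog3. Neurog3, a factor of pancreatic endocrine precursors, was at 4, 7 and 2, and both were listed at 0 in all controls. Atoh1 and Neurog3 passed the filter through embryoids only and Tbr1 and Eomes through controls only, so these calls restate the filter. Neurod4, which passed through both conditions, was at 12, 9 and 6 in D8 embryoids, against 4 in each D8 control library. At D7 it was at 1, 1 and 3 in embryoids, against 3 in each control library. Neurod4 was not called on either day. For the change of the embryoid-control difference, Neurod4 and Neurog1 were called higher and 1 proneural factor lower. None of the 11 tested genes of the REST repressor and its partners was called on either day (limma, 4 lower and 1 higher at an unadjusted p under 0.05 on each day). Rest itself was at 12, 13 and 13 in D8 embryoids, against 11, 10 and 11 in D8 controls, and at 12, 7 and 12 in D7 embryoids, against 9, 11 and 11 in D7 controls, and the groups overlapped at D7 only (D8 log2 fold change 0.23, limma adjusted p = 0.231).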

How the data were processed

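The values analysed are 1 table of 24946 genes in 12 libraries, deposited by the authors as whole numbers and treated as a score, since the unit was inferred from sums of 997897 to 998433 to be rounded TPM. The authors sequenced single-end reads of 75 bp, mapped them to mm10 with STAR 2.6.1a, and named SAMtools 0.1.20, featureCounts and DESeq2 in their processing notes. Depth is unknown, so no counting error was computed.

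Values were taken as log2(value + 1) and 13751 genes whose mean passed 1 in any group were fitted in limma 3.58.1 (R 4.3.3, statmod 1.5.0) with 4 group means and trended, robust variances, and the fit was checked on simulated data. P-values were adjusted by Benjamini-Hochberg over all tested genes of each of 5 contrasts. Groups listed at 0 add no spread, so standard errors can be too small. Alternatives were other pseudocounts, filters, scalings, variance models, no minimum fold, the compared libraries alone, a replicate block and leaving out each library. Sequences came from RefSeq. Figures used matplotlib 3.10.9.

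The members and lists were chosen with earlier results of these data known. Described in full are, per role, up to 3 called members with the largest change in each direction, the member of highest level and each member whose difference changed between the days, and of other lists up to 2 genes with the largest D8 change in each direction. Other genes were named after their values were seen.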

Additional observations from a re-analysis of the deposited data

Results flagged for a closer look

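For Mapt, which encodes tau, the embryoid-control difference changed between the days by a log2 value of -1.48 (limma test of the difference itself, adjusted p = 0.00401), with 5.67 ± 1.15 (SD, n = 3) in D8 embryoids, against 36.3 ± 2.08 in D8 controls, and 3.67 ± 1.15 in D7 embryoids, against 8.33 ± 1.15 in D7 controls. Myt1l, a neuronal zinc finger factor (-2, limma adjusted p = 0.000252), and Slc17a6, the vesicular glutamate carrier (-1.33, limma adjusted p = 0.0320), passed the same test, but both were listed at 0 in all embryoids and passed the filter through controls only. Their values restate that controls were at 3 in each D8 library and depend on the pseudocount, and no difference between the days can be read from them.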

How the results depend on the processing

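No single member or member median given here reversed in sign under any alternative. Among all tested genes, the larger count for the change turned from higher to lower with quantile normalization, as given above. The median of all tested genes moved from -0.18 to 0.02 at D8 and from -0.19 to 0.01 at D7 with median-of-ratios scaling. Single members kept their direction and side of the threshold in 3146 cases, lost a call in 125 and gained one in 43. With a pseudocount of 5, 1 member was higher at D8, 1 (Mapt) had a changed embryoid-control difference, 9 rose between the days in embryoids, and the medians were -1.39 at D8 and -1.06 at D7. A filter above 5 left 1 higher at D8 and 1 changed (Mapt). With a pseudocount of 0.5, 2 members were higher at D7. Quantile normalization gave 1 higher at D8 and 5 changed. Median-of-ratios scaling moved the D8 median to -1.72. With no minimum fold, 2 were higher at D7, 7 changed, and 35 rose in embryoids. Only the libraries compared left 2 rising in embryoids, and this setting could not be applied to the test of the difference. Leaving out 1 library at a time gave 37 to 40 lower and 2 to 2 higher members at D8, 30 to 35 lower and 1 to 2 higher at D7, 2 to 4 lower and 0 to 1 higher for the change (Nhlh2), 14 to 24 rising in embryoids, 29 to 32 rising in controls, and medians of -2 to -1.84 at D8 and -1.71 to -1.24 at D7. With a replicate block, 2 members changed instead of 3, Slc17a6 having an adjusted p of 0.0515 in limma, and no other member's call moved. The replicate numbers were not treated as pairs in the main fit. Deviations of same-numbered libraries correlated at -0.19 to 0.076 across genes, with 0 of 18 pairs above 0.1. With 3 libraries per group this cannot exclude a pairing.

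Among all tested genes, counts moved by over 1.5 times in 34 cases. With a pseudocount of 5 they were 670 higher and 661 lower at D8, beside 1398 and 1322, and 472 and 551 at D7, beside 1040 and 1145, 68 and 42 for the change, beside 222 and 123, 96 higher in embryoids and 124 in controls between the days, beside 348 each. A filter above 5 gave 894 higher at D8 and 80 lower for the change. With no minimum fold they were 3281 and 6110 at D8, 2806 and 6160 at D7, and 738 and 510 for the change, and between the days 2208 higher in embryoids and 2394 in controls. Quantile normalization gave 191 higher in embryoids, and the embryoid libraries alone 104. Genes lower at D8 than at D7 numbered 1 to 621 in embryoids, beside 18, and 9 to 1104 in controls, beside 28, and without D8 control replicate 3 the change had 137 higher genes. The causes were not tested. Depth is unknown, and since the values are rounded, a difference of 1 unit between low values may be rounding.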
